A study of Mus musculus with 29 samples.

Results

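Olfml3, Fcrls, Gpr34, Tmem119 and Siglech are 5 genes by which resident microglia are told apart from other brain macrophages, and they were chosen by name from the 19704 genes in the tables of young brain. Drop-seq, in which each cell is captured in a droplet with a barcoded bead, gave 18 brain and 11 blood libraries of C57BL/6J mice. Stroke was a transient blockage of the middle cerebral artery (MCAO), and sham mice had the operation without it. The young mice were males, 8 to 10 weeks old, with 4 sham libraries at day 2, 4 stroke libraries at day 2 and 4 stroke libraries at day 14. Mice of 17 to 20 months gave 2 sham libraries (1 male, 1 female) and 3 stroke libraries (1 male, 2 female) at day 2 and 1 female stroke library at day 14. Each brain library pooled 4 to 5 hemispheres, digested with papain in the presence of transcription inhibitors and sorted for cells with high CD45, microglia and endothelial cells. There was no sham group at day 14, so time since surgery and stroke cannot be told apart in any comparison of day 14 with sham.

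Microglia are the macrophages of the brain tissue itself. They are seeded before birth, renew themselves locally, and hold their identity through signals of the tissue such as TGF-beta together with transcription factors such as PU.1, Sall1 and Mef2c. After an ischemic injury they become activated and divide while monocytes enter from the blood, and genes restricted to microglia are used to keep these cells apart. Siglech encodes a cell surface protein of the Siglec family that plasmacytoid dendritic cells also carry. Gpr34 encodes a G protein-coupled receptor for lysophosphatidylserine, and Fcrls a scavenger receptor related to the Fc receptor-like family. Tmem119 encodes a transmembrane protein of little known function that is widely used as a microglial marker, and Olfml3 a secreted glycoprotein with an olfactomedin domain.

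All 5 are protein-coding genes in GENCODE vM21 on GRCm38 (mm10). Siglech lies on chromosome 7 from 55768178 to 55778925 on the plus strand. Gpr34 lies on chromosome X from 13632089 to 13640858 on the plus strand, within the span of Cask on the opposite strand, and the strand used in counting is not given in the sources used here. Fcrls (87250758 to 87263738) and Olfml3 (103722222 to 103738001) lie on the minus strand of chromosome 3, and Tmem119 lies on the minus strand of chromosome 5 from 113793729 to 113800516. The 250 bases before the start of the member with the largest fall at day 2, Siglech, and of a member not called at any time, Olfml3, are shown from RefSeq promoters of GRCm38.p6, with matches to the SMAD box CAGAC (bound by the mediators of TGF-beta) in capitals. Both strands were searched for CAGAC and for GAGGAA, a core bound by ETS factors such as PU.1, and these motifs do not overlap each other.
Siglech, chr7:55767934-55768183, plus strand: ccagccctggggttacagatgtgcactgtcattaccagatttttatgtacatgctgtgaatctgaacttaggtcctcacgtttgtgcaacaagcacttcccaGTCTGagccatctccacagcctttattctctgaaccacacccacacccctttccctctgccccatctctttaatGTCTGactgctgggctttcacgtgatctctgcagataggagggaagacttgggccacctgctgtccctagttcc
Olfml3, chr3:103738002-103738251, minus strand: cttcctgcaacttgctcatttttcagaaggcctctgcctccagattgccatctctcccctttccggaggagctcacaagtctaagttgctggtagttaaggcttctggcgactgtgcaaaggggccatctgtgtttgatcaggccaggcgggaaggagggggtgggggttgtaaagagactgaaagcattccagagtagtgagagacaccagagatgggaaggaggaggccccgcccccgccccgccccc
The Siglech window held 2 matches to the SMAD box, both on the opposite strand and therefore printed as GTCTG, and the Olfml3 window held neither motif. Of 27018 mouse promoter windows of the same length, 42.1% held CAGAC and 23.1% held GAGGAA. Promoters of 3 of the 5 members were matched, the third being that of Fcrls, which was not called lower and held 2 matches to CAGAC and 1 to GAGGAA. These matches describe letters and were not tested for binding.

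The brain libraries held 55268 cells, with 1143 to 5121 cells, 819438 to 5855047 summed counts and a median of 321 to 1363 counts per cell in each. Of 55174 distinct cell barcodes, 91 occurred in more than 1 brain library. The cell types are those of the deposited annotation, in which 24707 brain cells were microglia (18737 in young mice). Levels are CPM, a gene's counts summed over the microglia of a library and scaled to a common total, so that a smaller share of cells with a transcript and fewer transcripts per cell cannot be told apart in them. In 5 young libraries the highest mitochondrial percent of any cell was at most 6.44%, and in 7 it was 17.5% or more. The median percent per library was 0.23 to 0.56 in the former and 1.67 to 3.38 in the latter. What divides these sets is not given in the sources used here, and low cap and high cap are only names for them. They hold 1, 2 and 2 against 3, 2 and 2 libraries of sham, day 2 and day 14. Values within each set are given beside the results. Within the low cap the sham arm is 1 library, assumed to vary like the stroke libraries, so these p-values check no replicate spread in sham. The high cap holds replicate 3 of day 2, described next.

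One library stood apart. Replicate 3 of young stroke at day 2 held 58 cells annotated as microglia among 3457 cells, 56 of them of the deposited subtype Mg4, with 26321 summed counts. In these cells Olfml3, Fcrls and Gpr34 were listed at 0, which allows up to 114 CPM, while Siglech was at 176 CPM and Tmem119 at 42.2 CPM. All 25 of 25 other genes of a microglial signature list were lower there than in each of the other day 2 libraries. For Sall1, Sall3 and Slc2a5, listed at 0 there, the other day 2 libraries held at most 107, 53.4 and 84.3 CPM. These lie under the 114 CPM that a count of 0 allows, so their order is not resolved. Sall1 and Sall3 are named after their values were seen. P2ry12, a purinergic receptor of resting microglia named here after its values were seen, was at 3.25 CPM against 992 to 1291 CPM. The summed level of 10 monocyte-derived cell markers was 1643 CPM there and 388 to 710 CPM in the other day 2 libraries. Of these, Fn1 was lower there (14.9 against 24.5 to 231 CPM), and F10 and Thbs1 lay within the others' range. These genes are named after their values were seen. Sums of border macrophage, plasmacytoid dendritic, endothelial and oligodendrocyte markers were also higher there, at 227, 1548, 75.6 and 61.9 CPM. Those of B, T, NK, mural, neutrophil and conventional dendritic markers were lower. Which type these cells are was not tested. By the signature genes the cells therefore go against their label as microglia. The members' changes in microglia at day 2 are given with and without this library. Whether counts listed at 0 reflect the step that made the deposited counts fractional was not tested. The whole library, with all its cell types, held 0 counts of Gpr34, 1.62 of Olfml3 and 7.06 of Fcrls. Sparc, also named after its values were seen, was listed at 0 in these microglia and had 2376 counts in the whole library.

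Across cell types all 5 genes were highest in microglia. Over the 11 other young brain libraries pooled, and among 12 types with at least 50 cells, Fcrls was at 2070 CPM in microglia, Siglech at 1694, Olfml3 at 1208, Tmem119 at 882 and Gpr34 at 841. These levels rank a gene across types and not the genes against each other. The second type differed by gene. Border-associated macrophages, which live in the meninges and around vessels, came second for Fcrls with 862 CPM, for Siglech with 156 CPM and for Gpr34 with 94.8 CPM. For Siglech dendritic cells were close, at 147 CPM, and the order turned with the group: border macrophages and dendritic cells held 232 and 21.4 CPM in sham but 127 and 198 CPM at day 14. For Olfml3 and Tmem119 it was a small class, 62 oligodendrocytes with 76.3 CPM and 75 epithelial cells with 80.6 CPM. These rest on 5.44 and 4.86 counts, where a count of 0 allows 42.1 and 49.7 CPM. Monocyte-derived cells held 54.5 CPM of Olfml3 from 567 counts and 41.8 CPM of Tmem119 from 434 counts. In 5378 endothelial cells, which should lack these genes, no member was above 2.02 CPM. The types were cut from the same values, so this order is a description.

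**Figure D1:**
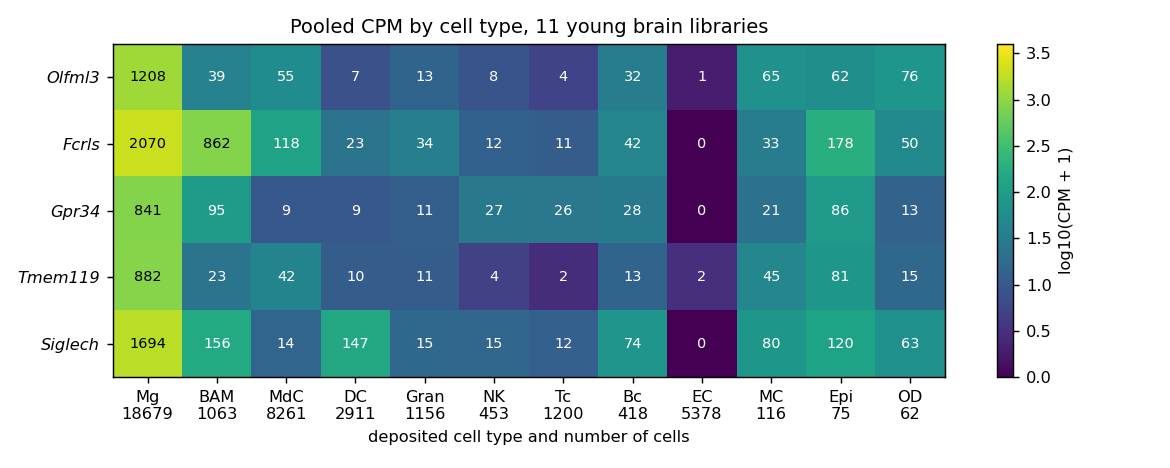
Pooled CPM of the 5 genes (rows) in 12 deposited cell types (columns, with the number of cells under each code) of 11 young brain libraries, with color on a log10(CPM + 1) scale. Mg are microglia, BAM border-associated macrophages, MdC monocyte-derived cells, DC dendritic cells, Gran granulocytes, NK, Tc and Bc the lymphocytes, EC endothelial, MC mural, Epi epithelial cells and OD oligodendrocytes. The microglial column is the highest in each row, and Fcrls at 862 CPM in BAM is the highest value outside it.

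In young microglia Siglech fell after stroke at day 2, and Tmem119 and Gpr34 were lower in every stroke library than in any sham library. Olfml3 overlapped sham at both times, and Fcrls rose at day 2 once replicate 3 was left out. At day 2 the edgeR test called 1 of the 5 genes lower, against 15.7% of all 10145 genes tested. Without replicate 3 it called Siglech lower, against 13.1% of genes, and Fcrls higher, against 14.5%. At day 14 it called none of the 5, where 15.2% of genes were called in either direction. Without replicate 3, which lies outside that contrast but shares its fit, Tmem119 and Siglech were called lower at day 14, against 5.06% of genes.

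Siglech stood at 3370, 2732, 3106 and 3130 CPM in the 4 sham libraries, a mean of 3085 ± 263 (SD, n = 4). The stroke libraries held 1083, 1236, 176 and 612 CPM at day 2, and 1051, 1181, 696 and 1460 CPM at day 14. Every stroke library at either time was below every sham library. At day 2 the log2 fold change was -1.77 ± 0.43 (SE), a 3.41-fold fall, with an adjusted p of 0.008 in edgeR. Without replicate 3 it was -1.495 ± 0.27, a 2.82-fold fall, with an adjusted p of 0.0024. At day 14 it was -1.04 ± 0.42 with an adjusted p of 0.10 in edgeR, and -1.05 ± 0.24 with an adjusted p of 0.013 without replicate 3. Within the low cap, against 1 sham library, the day 2 change was -1.34 (edgeR adjusted p = 0.073), and within the high cap, with replicate 3, it was -2.50 (0.0039). The other day 2 library of the high cap held 612 CPM, against 2732 to 3130 CPM in its 3 sham libraries. The day 14 changes were -1.10 and -1.04 in the same order, neither of them called.

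Tmem119 stood at 1783, 1250, 1114 and 1156 CPM in sham. It held 717, 731, 42.2 and 1032 CPM at day 2, and 327, 395, 527 and 494 CPM at day 14. All stroke libraries were below all sham libraries at both times, and apart from replicate 3 the day 14 values lay below those of day 2. The log2 fold change at day 2 was -0.78 ± 0.49 (edgeR adjusted p = 0.23), and -0.47 ± 0.26 (adjusted p = 0.19) without replicate 3. At day 14 it was -1.13 ± 0.49 with an edgeR adjusted p of 0.12. Without replicate 3 it was -1.15 ± 0.24, a 2.21-fold fall, with an adjusted p of 0.0094. The day 14 change was -1.81 within the low cap, where the spread comes from the stroke libraries alone because sham is 1 library (edgeR adjusted p = 0.047), and -0.74 within the high cap (0.47).

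Gpr34 stood at 1337, 997, 1024 and 1079 CPM in sham. It held 633, 587, 0 and 855 CPM at day 2, and 539, 483, 879 and 662 CPM at day 14. The groups did not overlap, but the test did not call the gene. The log2 fold change was -0.78 ± 0.52 at day 2 (edgeR adjusted p = 0.26) and -0.32 ± 0.52 at day 14 (adjusted p = 0.71). Without replicate 3 these were -0.47 ± 0.27 (adjusted p = 0.19) and -0.33 ± 0.24 (adjusted p = 0.36). At day 14 it was -0.89 within the low cap, against 1 sham library, and 0.05 within the high cap.

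Siglech, Tmem119 and Gpr34 were thus 3 of 5 members without overlap between stroke and sham, both at day 2, where 24% of all tested genes lay below sham in every stroke library, and at day 14, where 28.7% did. Without replicate 3 the day 2 share was 26.6%. CPM values are not corrected for composition, whereas the fold changes use TMM scaling, which centers the bulk of genes. Without TMM the median of all genes moved from -0.05 to -0.22 at day 2 and from -0.04 to -0.49 at day 14. Without TMM the fold changes of Siglech and Tmem119 at day 14 were -1.48 and -1.60, and both were called, with edgeR adjusted p of 0.016 and 0.019, where 27.2% of all genes were called lower.

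Fcrls stood at 2124, 1672, 1719 and 1993 CPM in sham. It held 2852, 2511, 0 and 2272 CPM at day 2, and 1930, 1733, 2314 and 1865 CPM at day 14. Apart from replicate 3 the day 2 libraries were all above sham, as were 14.9% of tested genes, while day 14 overlapped sham. The log2 fold change at day 2 was 0.25 ± 0.66 (edgeR adjusted p = 0.81). Without replicate 3 it was 0.62 ± 0.19, a 1.54-fold rise, with an adjusted p of 0.031. At day 14 it was 0.53 ± 0.66 (adjusted p = 0.61), and 0.52 ± 0.18 (adjusted p = 0.070) without replicate 3. Within the low cap, against 1 sham library, the day 2 change was 0.54 (edgeR adjusted p = 0.25), and within the high cap, which holds replicate 3, it was -0.18 (0.87).

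Olfml3 stood at 1563, 1093, 1051 and 1214 CPM in sham. It held 1524, 1315, 0 and 1365 CPM at day 2, and 968, 969, 1293 and 922 CPM at day 14. The groups overlapped at both times. The log2 fold change was 0.03 ± 0.59 at day 2 (95% interval -1.12 to 1.18) and 0.23 ± 0.59 at day 14 (-0.92 to 1.38), with edgeR adjusted p of 0.98 and 0.82. Without replicate 3 these were 0.38 ± 0.21 (adjusted p = 0.18) and 0.22 ± 0.19 (adjusted p = 0.46). Without TMM scaling its sign turned at both times, to -0.14 and -0.24, so no direction is given for Olfml3.

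**Figure D2:**
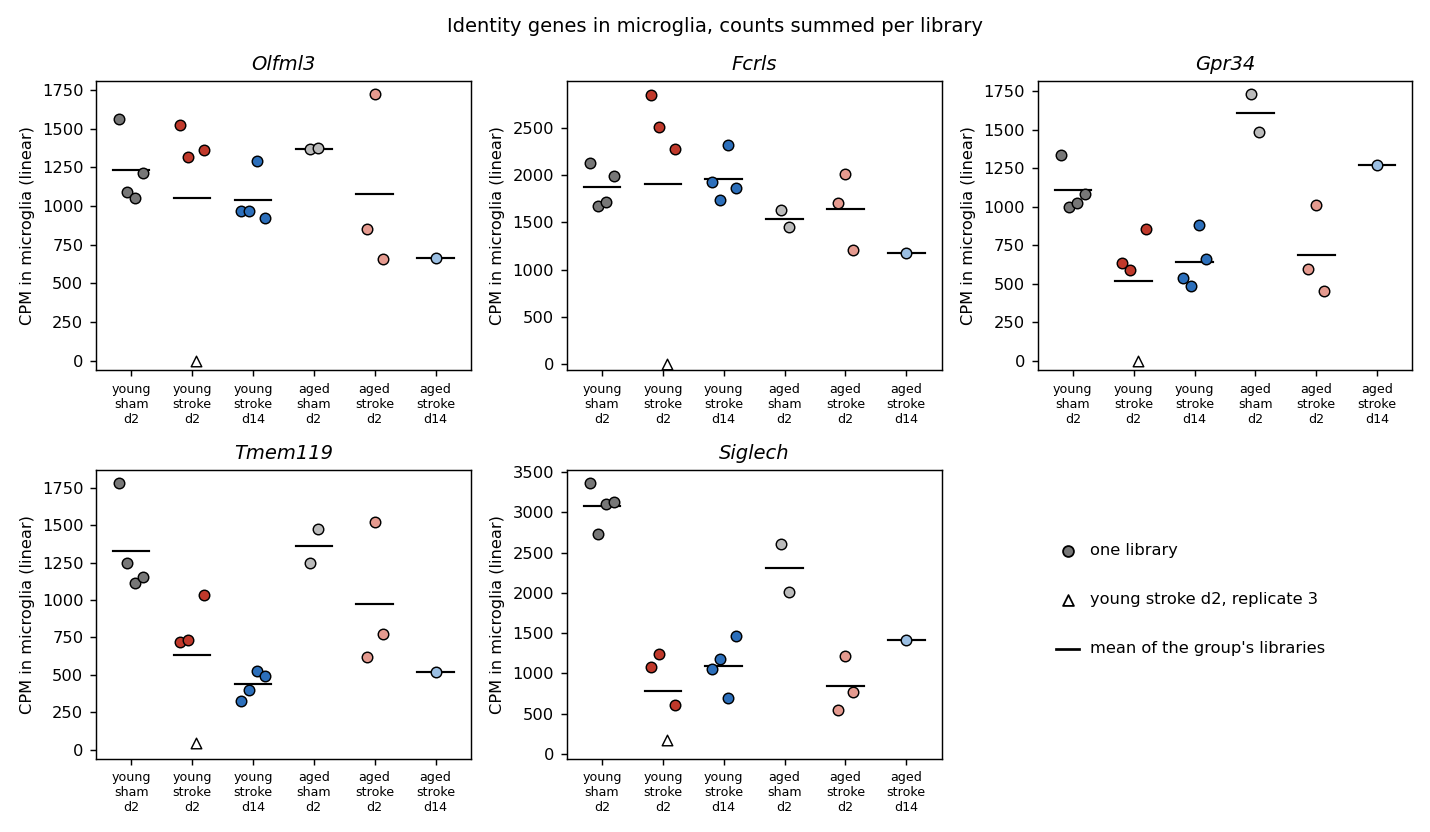
CPM of each gene in microglia (linear axis), with 1 point per library, a bar at the mean of each group's libraries, and the young stroke day 2 replicate 3 as an open triangle. Siglech lies at 2732 to 3370 CPM in young sham and at or below 1460 CPM in young stroke, while Fcrls and Olfml3 at day 14 overlap sham.

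**Figure D3:**
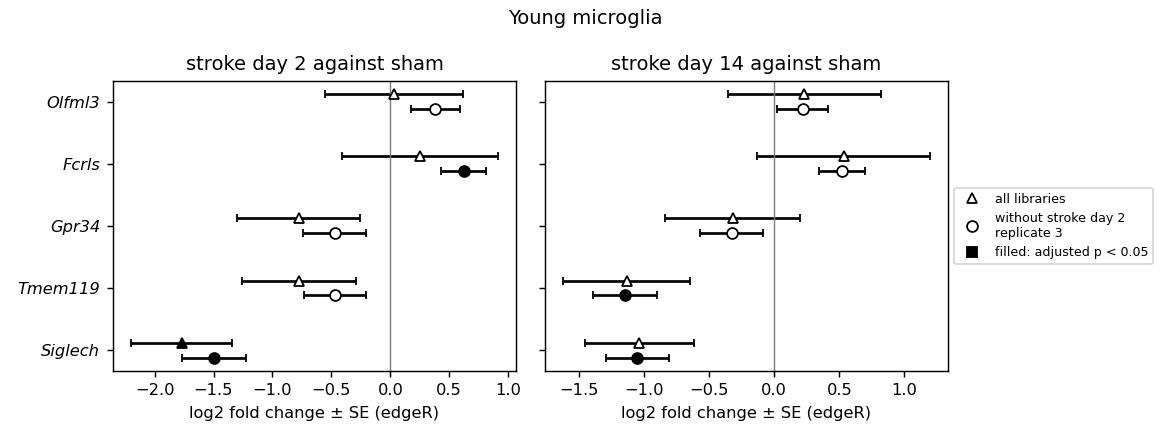
Log2 fold change ± SE from edgeR for young microglia, at day 2 (left) and day 14 (right) against sham, for all libraries (triangles) and without stroke day 2 replicate 3 (circles), filled where the adjusted p was under 0.05. At day 2 Siglech is filled in both fits and Fcrls only without replicate 3, and at day 14 Tmem119 and Siglech are filled only without replicate 3.

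Between day 14 and day 2 of stroke the test called none of the 5 genes, where 6.93% of genes were called. Tmem119 was lower at day 14 by a log2 change of -0.36 ± 0.48 (edgeR adjusted p = 0.74), and by -0.68 ± 0.26 (adjusted p = 0.15) without replicate 3. Siglech differed by 0.73 ± 0.42 (adjusted p = 0.34) and by 0.44 ± 0.26 (adjusted p = 0.37) without it. Fcrls and Olfml3 turned sign between the fits, from 0.28 to -0.10 and from 0.20 to -0.16. A return of Siglech toward sham between these times was therefore not detectable with these libraries.

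The share of cells with a transcript was measured at a common depth. Cells were thinned to 500 counts each, which left out 52.5% of sham, 27.0% of day 2 and 38.4% of day 14 microglia, and all cells of replicate 3 were left aside because 10 were deep enough. Siglech was found in 69.4% to 77.2% of cells of the sham libraries, in 26.9% to 41.7% at day 2 and in 28.9% to 44.9% at day 14. Tmem119 went from 41.0% to 56.5% in sham to 15.4% to 22.6% at day 14, with 26% to 40.3% at day 2. Fcrls lay at 52.3% to 61.3%, 63.1% to 69.3% and 52.5% to 63.5% in the same order of groups. Gpr34 lay at 35.2% to 46.1%, 25.2% to 33.2% and 19.9% to 33.6%, and Olfml3 at 39.1% to 51.2%, 45.7% to 48.1% and 32.7% to 45.3%. Without overlap with sham at this depth, Siglech, Tmem119 and Gpr34 were found in fewer cells and Fcrls at day 2 in more. The share of all genes with such an order was not computed, and thinning to a common total does not correct for composition. At 1000 counts, which left out 92.2% of sham cells, Fcrls overlapped, at 72.5% to 86.2% in sham and 83.0% to 89.3% at day 2. Siglech, Tmem119 and Gpr34 stayed below sham at that depth. Cells with none of the 5 transcripts made up 1.23% to 4.51% of sham, 7.62% to 11.5% of day 2 and 10.0% to 14.9% of day 14 microglia. At 1000 counts these shares were 0% to 1.28%, 1.07% to 4.95% and 1.84% to 4.80%. Unthinned and without replicate 3 they were 1.84% to 7.71%, 7.10% to 10.0% and 4.24% to 19.2%. Sham and day 2 thus overlapped in both of these settings. Siglech and Fcrls were found in 0% of endothelial cells thinned alike. Whether the unknown step behind the fractional counts set this share was not tested. Unthinned, Siglech was found in 67.8% to 81.5% of sham cells, in 49.7% to 50.8% at day 2 without replicate 3, and in 48.1% to 69.2% at day 14. Unthinned shares also follow depth, and those of the other members were higher after stroke except Tmem119 at day 14. The median was 36.8%, 46.9% and 45.1% for Gpr34 in the same order, 41.7%, 48.2% and 33.4% for Tmem119, 39.3%, 62.8% and 58.5% for Olfml3, and 53.1%, 76.2% and 70.6% for Fcrls.

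The deposited subtypes of microglia changed with the groups. Mg1 and Mg2 made up 53.6% and 37.2% of young sham microglia, Mg4 and Mg5 made up 37.1% and 34.5% at day 2 without replicate 3, and Mg3 made up 66.1% at day 14. The subtypes were cut from the expression of these same cells, so their levels and sizes are described and not tested against each other. Siglech, pooled over libraries without replicate 3, was at 3344, 3065 and 2674 CPM in Mg1 of sham, day 2 and day 14. In Mg4 it was at 1739, 414 and 720 CPM, in Mg5 at 2067, 684 and 592 CPM, and in Mg3 at 2735, 1334 and 994 CPM. Tmem119 was at 1302 CPM in Mg1 but 366 CPM in Mg3 at day 14. Fcrls had a narrower span at day 2, from 2347 CPM in Mg2 to 2501 CPM in Mg1 across Mg1 to Mg5.

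**Figure D4:**
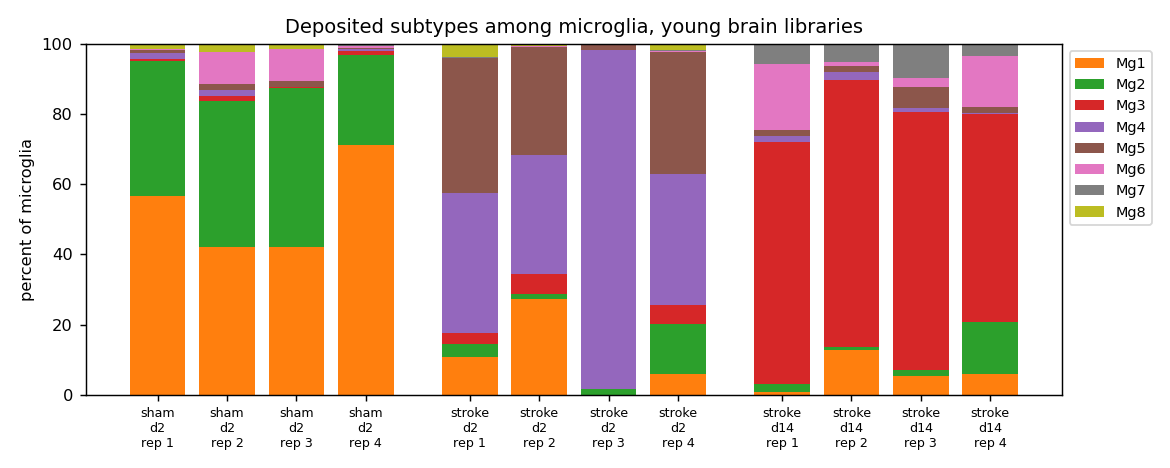
Percent of microglia in each deposited subtype, Mg1 to Mg8, in the 12 young brain libraries (stacked bars that add up to 100). Sham libraries are mostly Mg1 and Mg2, day 2 libraries Mg4 and Mg5, and day 14 libraries Mg3, while replicate 3 of day 2 is almost wholly Mg4.

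Within a subtype, tests could be run for Mg1 at both times and for Mg4 and Mg5 at day 2, where at least 3 libraries of each group held 20 cells. In Mg1 none of the 5 genes was called at day 2, where 0.118% of 1691 tested genes were, or at day 14, where 0.177% were. Mg1 was cut from the same values and holds most sham cells, so stroke cells in it were placed there for being like them. Few calls within Mg1 therefore cannot show that the members held after stroke. The number of genes called in Mg1 at day 2 was 2, and 100 when sham replicate 1 was left out. Siglech in Mg1 held 3553, 3155, 3567 and 3186 CPM in sham and 3394, 3545 and 2108 CPM at day 2. These groups overlapped, and the log2 fold change was -0.07 with a 95% interval of -0.57 to 0.42. The day 14 libraries with at least 20 Mg1 cells held 2842, 2069 and 2653 CPM, all below sham, at -0.30 with an interval of -0.80 to 0.20 (edgeR adjusted p = 0.96). The remaining day 14 library, with 8 cells, was at 3458 CPM. In Mg5 Siglech held 2585, 1853 and 2237 CPM in the sham libraries with at least 20 cells and 925, 810 and 556 CPM at day 2. It was called lower there, at -1.45 ± 0.32 (edgeR adjusted p = 0.033), where 4.38% of genes were called lower. Leaving out 1 library ended this call in 5 of 6 cases, with changes of -1.67 to -1.33, and without a filter on low counts the change was -0.65 (edgeR adjusted p = 0.62). In Mg4 none of the 5 was called, where 3.76% of genes were. Siglech there was at -1.73 ± 0.47 (edgeR adjusted p = 0.068), and without replicate 3 at -1.48 with an adjusted p of 0.083. It was called there without day 2 replicate 2, at -2.39 (adjusted p = 0.026). Whether the change differs between subtypes was not tested.

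**Figure D5:**
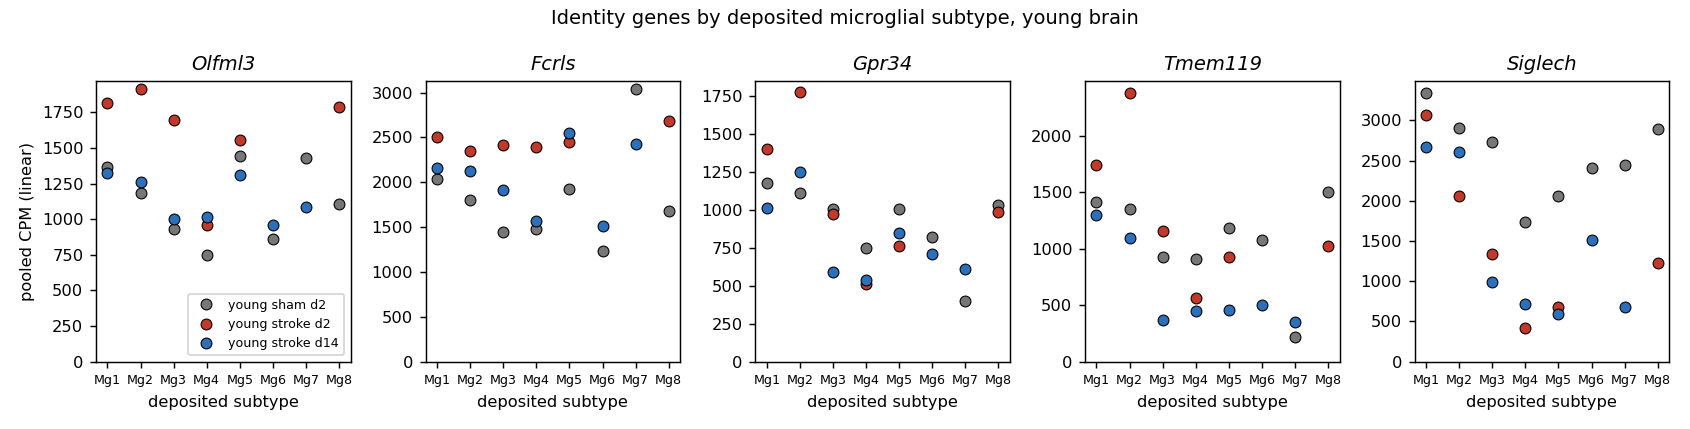
CPM of each gene pooled over the libraries of a group (linear axes) in each deposited subtype with at least 20 cells, for young sham, stroke day 2 without replicate 3, and stroke day 14. For Siglech the sham, day 2 and day 14 points lie at 3344, 3065 and 2674 CPM in Mg1 and at 2067, 684 and 592 CPM in Mg5.

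The pooled levels were also weighted by the subtype makeup of sham microglia, as an arithmetic description. The weights were each subtype's share of the summed counts, not of the cells. Replicate 4 held 187 of the 218 Mg2 cells at day 2 without replicate 3, and 388 of 428 at day 14. The weighted levels of Mg2 thus rest largely on 1 library at each time. Siglech at day 2 without replicate 3 was at 26% of its sham level as observed and at 81.0% with the sham makeup, and at day 14 at 35.3% and 82.0%. Tmem119 at day 14 was at 31.5% as observed and at 84.2% with the sham makeup, and at day 2 at 66.3% and 143%. Fcrls at day 2 was at 127% either way. Weighted the other way, sham microglia with the stroke makeup would hold 2110 of 3102 CPM of Siglech at day 2 and 2653 of 3072 CPM at day 14, and 870 of 1359 CPM of Tmem119 at day 14. The share set by makeup thus depended on which group's levels were weighted. Since the subtypes were cut from the same cells, these values do not separate a change in makeup from a change within cells.

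Of 25 further genes of microglial identity, the edgeR test called 10 lower and 0 higher at day 2, where 15.7% of all genes were called lower and 15.7% higher. All 25 were below 0, as were 3 of the 5 members, with a median log2 fold change of -1.06 against -0.05 over all genes and -0.78 over the 5 members. Without replicate 3, 12 were called lower and 24 were below 0, with a median of -0.88, and the median over the 5 members was -0.47. The lowest were Mertk, a receptor for engulfment, at -2.04 ± 0.48, Tgfbr1, a receptor of TGF-beta, at -1.90 ± 0.37, and Entpd1, which breaks down extracellular ATP, at -1.80 ± 0.31. Their edgeR adjusted p values were 0.007, 0.0026 and 0.0011, and without replicate 3 their changes were -1.83, -1.69 and -1.66, all called. Among the highest were Pros1 at -0.31 and Ctss at -0.40, neither of them called.

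At day 14, 4 of the 25 were called lower, where 4.66% of all genes were, and 1 higher, where 10.6% were, with a median of -0.62 against -0.04 over all genes, and without replicate 3 the counts were 10 and 2, where 5.06% and 9.35% of all genes were called lower and higher. Crybb1 was lowest at -1.81 ± 0.38 (edgeR adjusted p = 0.0061), and the sugar transporter gene Slc2a5 was at -1.25 ± 0.31 (0.016). P2ry12 was at -1.34 ± 0.60 (edgeR adjusted p = 0.14), and at -1.35 with an adjusted p of 0.0046 without replicate 3. Ctss, a lysosomal protease gene, was called higher at 1.12 ± 0.29 (edgeR adjusted p = 0.022), while the protease inhibitor gene Serpine2 at 1.63 (0.069) and Sparc at 0.43 (0.69) were not called. Without replicate 3 Serpine2 was called, at 1.62 (edgeR adjusted p = 0.0039). Between day 14 and day 2, Serpine2 (2.14, edgeR adjusted p = 0.042) and Ctss (1.52, 0.0082) were the 2 of 25 called, both higher, where 3.47% of genes were called higher. Without replicate 3 the test called 5 higher, where 2.87% of genes were, with Sparc at 0.91 (adjusted p = 0.016), Cst3 at 0.82 (0.034) and Mef2c at 0.77 (0.042) beside Serpine2 at 1.81 and Ctss at 1.38, and these 3 added genes are named after their values were seen. Mertk at 1.44 was next, and Crybb1, Ecscr and Slc2a5 were lowest at -0.44, -0.35 and -0.18, none of these called.

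Of 14 genes of TGF-beta signaling and microglial transcription factors, 4 were called lower at day 2, where 15.7% of all genes were (13.1% without replicate 3): Mef2a at -2.03, Tgfbr1 at -1.90, Mef2c at -1.34 and Runx1 at -0.72. The called genes of this list are named after their values were seen. Without replicate 3 these were -1.91, -1.69, -1.08 and -0.66, all called. Mef2c and Tgfbr1 are also in the signature list. At day 14 Mef2a was called, at -1.25 (edgeR adjusted p = 0.020), and without replicate 3 both Mef2a, at -1.26 (0.016), and Tgfbr1, at -1.04 (0.0062). The shares of all genes called lower at day 14 were 4.66% and 5.06%. In the same sums 13 of 14 genes of activated microglia were called higher at day 2 and 14 of 14 at day 14, and 12 of 12 and 10 of 12 proliferation genes, where 15.7% and 10.6% of all genes were called higher. Without replicate 3 these 4 counts were the same.

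Markers of other cells moved with the groups in the microglial sums. The summed level of 10 monocyte-derived markers was 62.7 to 111 CPM in sham, 388 to 710 CPM at day 2 without replicate 3, and 113 to 269 CPM at day 14. From 3 to 8, 0 to 8 and 2 to 8 of these markers were at 0 in a library of each group. Much of this sum was Ms4a6c, at 51.5 to 111 CPM in sham and 301 to 363 CPM at day 2 without replicate 3. Fn1 reached 231 CPM in those day 2 libraries, and no other marker of the list exceeded 52.4 CPM there. Both genes are named after their values were seen. For 8 border macrophage markers the sums were 33.2 to 39.7, 21.5 to 135 and 94.6 to 139 CPM, and for 8 plasmacytoid dendritic markers 351 to 556, 711 to 763 and 728 to 1061 CPM. Below sham without overlap were the sums of oligodendrocyte markers at both times, of neutrophil markers at day 2, and of conventional dendritic and B cell markers at day 14. The sums of 5 oligodendrocyte markers were 89.9 to 166, 35.3 to 60.7 and 37.5 to 68.3 CPM, with 1 to 3, 1 to 2 and 2 at 0. Those of 6 neutrophil markers were 176 to 593, 72.9 to 156 and 136 to 224 CPM, with 2 to 5, 2 to 5 and 1 to 5 at 0, and those of 7 conventional dendritic markers 22.5 to 48.8, 7.41 to 40.7 and 1.95 to 21.1 CPM, with 1 to 4, 3 to 4 and 1 to 6 at 0. For 5 B cell markers the sums were 204 to 328, 191 to 227 and 151 to 181 CPM, with 1 to 3, 1 to 2 and 0 to 2 at 0. Those of 5 T cell markers were at most 4.20 CPM in sham, 5.98 to 10.4 CPM at day 2 and 2.19 to 20.7 CPM at day 14. Day 2 thus lay above sham for T cell markers, at low levels. The part of all these markers in the members' changes was not tested.

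In the genes most like each member, measured as Pearson correlation of log2(CPM + 1) in microglia over young libraries, replicate 3 of day 2 set the order. With all 12 libraries and 3169 genes, Olfml3 was closest to Fcrls (r = 0.999), Tspan7 (0.995) and Jam2 (0.994), and Fcrls to Olfml3, Jam2 (0.995) and Cadm1 (0.990). Gpr34 was closest to Ldhb (0.994), Tspan7 and Ptgs1 (both 0.992). Tmem119 was closest to Lrba (0.983), Crybb1 (0.979) and Slc2a5 (0.974), and Siglech to Hps3, Maf and Ints6l (all 0.987). Without that library, over 11 libraries and 3174 genes, other names came first: Lpcat2 for Gpr34 (0.983), Ecscr for Tmem119 (0.979), Rb1cc1 for Siglech (0.987), Cs for Fcrls (0.932) and Eif4h for Olfml3 (0.951), all named after their values were seen. Among the members Gpr34 and Tmem119 then had r = 0.87 and Olfml3 and Fcrls 0.78, while Siglech had 0.63 with Tmem119, 0.60 with Gpr34, -0.49 with Fcrls and -0.05 with Olfml3. The points share libraries and groups, so these values are descriptions.

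In old mice the direction for Siglech and Gpr34 was the same. Siglech held 2012 and 2607 CPM in sham, 772, 545 and 1213 CPM at day 2 and 1419 CPM in the single day 14 library. Gpr34 held 1483 and 1728 CPM in sham, 454, 594 and 1008 CPM at day 2, and 1271 CPM at day 14. Both had every day 2 library below both sham libraries. The share of all genes with this order was not computed in old mice, so it is given as a description. None of the 5 was called, where 2.3% of 11096 genes were. Siglech was at -1.39 ± 0.54 (edgeR adjusted p = 0.20) and Gpr34 at -1.17 ± 0.66 (0.41). Without the young replicate 3, which enters the shared spread, Siglech was called lower at -1.40 ± 0.32 (adjusted p = 0.031), where 1.04% of genes were called lower, and Gpr34 was at -1.17 (0.084). In a fit of the old sham and day 2 groups alone Siglech was not called, at -1.47 (edgeR adjusted p = 0.099). Tmem119 held 1475 and 1250 CPM in sham, 775, 617 and 1522 CPM at day 2, and 518 CPM at day 14. Fcrls held 1451 and 1626 CPM, then 1211, 1702 and 2009 CPM, then 1175 CPM. Olfml3 held 1375 and 1366 CPM, then 658, 849 and 1722 CPM, then 664 CPM. For these 3 genes sham and day 2 overlapped, and the second female stroke library was the highest at day 2 in each. The interaction of age and stroke was called for none of the 5 genes and for 0% of all genes, and this design gave the interaction of Siglech a 95% interval of -1.003 to 1.72 in log2 units around 0.36. Without the young replicate 3 it was 0.055 ± 0.42 (SE). In the old microglia the monocyte-derived markers summed to 105 to 151 CPM in sham and 421 to 609 CPM at day 2, and the plasmacytoid dendritic markers to 364 to 418 and 764 to 1082 CPM. Neutrophil markers summed to 148 to 171 CPM in sham and 62.5 to 1450 CPM at day 2. Of these 10, 8 and 6 markers, 2 to 8, 3 to 5 and 0 to 5 were at 0 in a library of these groups. Oligodendrocyte markers went the other way, from 113 to 140 CPM in sham to 56.4 to 76.6 CPM at day 2. So did conventional dendritic markers, from 18.4 to 23.9 CPM to 7.86 to 16.3 CPM. The part of all these markers in the old members' values was not tested.

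Outside microglia no member was called with all libraries in the fit. In border-associated macrophages Fcrls held 1444, 629, 785 and 52.8 CPM in sham, 1855, 1088, 0 and 975.1 CPM at day 2 and 657, 807, 287 and 325 CPM at day 14. Fcrls and Siglech were the members that passed the filter there, and neither was called at day 2 (2.67% of genes called) or day 14 (0.0762%). Siglech was at -1.64 at day 2 (edgeR adjusted p = 0.24) and at -1.05 (0.51) without replicate 3, and was called, at -3.15 (0.049), when day 2 replicate 1 was left out. Fcrls was at 0.31 ± 0.83 at day 2 (edgeR adjusted p = 0.84), and at 0.83 (0.45) without replicate 3, the library in which it was listed at 0. In monocyte-derived cells no member was called at day 2 against sham, where 6.71% of genes were, or at day 14 against day 2, where 1.79% were. Fcrls there held 314, 204, 104 and 2.25 CPM at day 14 and 89.4, 115, 0 and 0 CPM at day 2. Its log2 change was 1.68 ± 1.18 (edgeR adjusted p = 0.69), and 1.26 (0.98) without day 2 replicate 3, and the fourth library of each group was at or near 0. Tmem119 held 37.8, 0, 0 and 0 CPM in sham, 59.2, 47.6, 41.0 and 49.7 CPM at day 2, and 33.98, 32.0, 19.7 and 0 CPM at day 14. The day 2 libraries lay above both other groups, at 2.04 ± 0.93 over sham (edgeR adjusted p = 0.23), where 3 of 4 sham libraries were at 0. The share of all genes with this order was not computed in monocyte-derived cells, so the order is a description. Leaving out 1 library gave 1.78 to 8.94, the highest without sham replicate 1, when all sham libraries left were at 0 and the fitted value is no bound. Day 14 was at -1.19 ± 0.57 against day 2 (0.44). Without replicate 3 these were 2.10 (0.30) and -1.25 (0.66).

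Siglech was also high in dendritic subtype DC8, with 4603 CPM pooled at day 14. That value rested on replicate 3, which held 33 of the 67 cells and 5909 CPM, while replicate 4, with 20 cells, was listed at 0. Blood came from young males, with 4 sham and 4 stroke libraries at day 2 and 3 stroke libraries at day 14, and its tables held Siglech, Gpr34 and Fcrls. Siglech in blood dendritic cells, pooled over 91, 63 and 354 cells, was at 1563 CPM in sham, 714 CPM at day 2 and 478 CPM at day 14, and single day 2 libraries of 3 to 29 cells ranged from 0 to 1318 CPM. Fcrls was at 0 in blood dendritic cells in all 3 groups. Gpr34 in blood eosinophils and basophils was at 56.6, 35.6 and 220 CPM in the same order, and the sham and day 2 values were under the limit that a count of 0 allows.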

How the data were processed

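Drop-seq tables of 18 brain and 11 blood libraries were read. The deposited values are expected counts per gene and cell, not whole numbers (0.0388% to 4.47% of non-zero values per brain library were whole). The step that made them fractional is not given in the sources used here. Seurat and mm10 are named, without a role, per the submitters' processing notes. The deposited metadata give the percent of mitochondrial counts and the cell types.

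Counts were summed per library and type and rounded. Libraries with at least 20 cells of a type entered the quasi-likelihood test of edgeR 4.0.16 (R 4.3.3) with TMM and filterByExpr, two-sided, with Benjamini-Hochberg adjustment over all genes tested and calls at an adjusted p under 0.05. Fits for young mice used the 3 young groups. Fits for old mice used young and old libraries of day 2. P-values measure the spread between these libraries, each a pool of animals. Single-library intervals and limits (3 counts) cover counting error only. In simulated data of young day 2 against sham, 64 of 100 genes changed by 1.5 log2 units and 100 of 100 changed by 3 were recovered, with 5 false calls among 10327 genes. The simulated libraries shared a mean profile and a fixed spread, without an outlying library such as replicate 3 of day 2. They therefore do not give the recovery for the members, whose spread in the real fit was not matched.

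DESeq2 1.42.0, other filters, scalings, cells and libraries were alternatives. Doublets were not removed: Scrublet's automatic threshold marked at most 6 cells per library. Replicate numbers were not used as pairs. The members and gene lists were chosen with earlier results of these data known. Named genes are all members, the 3 highest and 3 lowest of the signature list in each young comparison, and the 3 genes most like each member over 12 libraries, of which 1 result is not reported here; others are said to be named after their values were seen.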

Additional observations from a re-analysis of the deposited data

Results flagged for a closer look

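Each gene was checked in the 3 young groups of 4 libraries. Of these 15 sets, 2 held a library far from the other 3, and chance marks about 1 set in 20. Olfml3 in microglia of stroke day 14 replicate 3 was at 1293 CPM against 922 to 969 CPM in the other 3 libraries. Olfml3 in microglia of stroke day 2 replicate 3 was at 0 against 1315 to 1524 CPM. The first is the day 14 library in which Fcrls, Gpr34 and Tmem119 were also highest, at 2314, 879 and 527 CPM, and Siglech lowest, at 696 CPM. The second is the library described above, whose 58 cells annotated as microglia go against that label.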

How the results depend on the processing

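Of the members' log2 fold changes under alternatives other than leaving out 1 library, 281 kept their direction and side of the threshold, 16 came to pass it, 2 no longer passed and 25 changed sign. The changes of sign were of members that were not called. All log2 values here are from edgeR unless DESeq2 is named, and the causes were not tested.

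At day 2 against sham, Olfml3 (0.03) was at -0.23 with DESeq2, -0.14 without TMM, -0.087 with the replicate block, -0.053 with the mitochondrial cap as a term and -0.18 within the high cap. Fcrls was at 0.65 in cells of at least 800 counts and 0.62 with at least 100 microglia per library, both called, and at -0.18 within the high cap. The limit of 100 microglia left out only replicate 3 of day 2. In every young comparison it is therefore the same fit as the one without that library. The limit of 800 counts per cell also left out that library, because too few of its microglia were that deep to enter a fit. The Fcrls calls under these settings are therefore not separate from the removal of that library. Within the low cap, whose sham arm is 1 library assumed to vary like the others, Siglech was at -1.34 and did not pass.

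At day 14 against sham, Tmem119 was called with DESeq2 (-1.29), without TMM (-1.60), with only the compared groups (-1.10), in cells of at least 800 counts (-1.25), and with at least 100 microglia (-1.15). Against the 1 sham library of the low cap it was at -1.81. Siglech was called with DESeq2 (-1.17), without TMM (-1.48), with only the compared groups (-0.99), in cells of at least 800 counts and with at least 100 microglia (both -1.05). For both genes, the last 3 of these settings all leave out replicate 3 of day 2. Their calls are therefore not separate from the removal of that library. Olfml3 was at -0.24 without TMM and -0.20 within the low cap, and Gpr34 at 0.049 within the high cap.

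For day 14 against day 2, Olfml3 was at -0.10 without TMM, -0.14 in cells of at least 800 counts, -0.16 with at least 100 microglia and -0.26 within the low cap, and Fcrls at -0.0083, -0.12, -0.10 and -0.26 under the same settings. In old mice, DESeq2 gave Fcrls -0.026 and called Siglech at -1.57. For the interaction, Fcrls was at 0.0025 without TMM. In Mg1 at day 14, Olfml3, Fcrls and Tmem119 were at -0.13, -0.082 and -0.27 without a filter on low counts, and Tmem119 at -0.032 without TMM. In Mg5 at day 2, Gpr34 and Tmem119 were at 0.26 and 0.32 without the filter.

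Leaving out 1 library at a time gave these ranges. At day 2 Olfml3 lay from -0.16 to 0.38 and Fcrls from 0.10 to 0.62. Between day 14 and day 2 Olfml3 lay from -0.16 to 0.38, Fcrls from -0.10 to 0.42 and Tmem119 from -0.68 to 0.0142. In old mice Fcrls lay from -0.00099 to 0.31 and Siglech from -1.75 to -1.20, and in the interaction Fcrls from -0.52 to 0.0147 and Tmem119 from -0.12 to 0.57. In Mg1 Siglech at day 2 lay from -0.24 to 0.11, and at day 14 Olfml3 from -0.058 to 0.41, Gpr34 from -0.17 to 0.090 and Tmem119 from -0.16 to 0.26. Olfml3 at day 2 lay from -0.20 to 0.63 in Mg4 and from -0.047 to 0.38 in Mg5. In monocyte-derived cells at day 2 Olfml3 lay from -0.53 to 7.81, Gpr34 from -0.72 to 0.43 and Siglech from -2.79 to 5.92, and Tmem119 from 1.78 to 8.94. Fcrls in border-associated macrophages at day 2 lay from -0.25 to 0.88.

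Genes called in microglia at day 2 numbered 3182 (1588 higher, 1594 lower), 3391 (1273 and 2118) without TMM, 3585 (1438 and 2147) with DESeq2 and 55 within the low cap, and 2094 to 3120 with 1 library left out. At day 14 they numbered 1544 (1071 and 473), 3425 (670 and 2755) without TMM, 90 within the low cap and 791 to 2573 with 1 library left out. Between day 14 and day 2 they numbered 703 (352 and 351), 1157 (202 and 955) without TMM, 426 with only the compared groups, 1057 with counts rounded up per cell, 1 within the low cap and 276 to 735 with 1 library left out. In old mice 255 were called, 478 with DESeq2, 393 without the filter, 0 with only the old groups, and 0 to 357 with 1 library left out. With 1 library left out, the genes called in Mg1 numbered 1 to 100 at day 2 (2 with all) and 3 to 5 at day 14 (3), in Mg4 1 to 57 (44), and in Mg5 0 to 72 (113). The interaction had 0 calls, 0 with DESeq2, and 17 without the filter.

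Deviations of same-numbered libraries correlated from -0.287 to 0.074 between sham and day 2 (0 of 4 over 0.1), from -0.208 to 0.324 between sham and day 14 (2 of 4) and from 0.070 to 0.537 between day 2 and day 14 (3 of 4). Differently numbered libraries of day 2 and day 14 correlated from -0.526 to 0.353. No comparison had every pair over 0.1, so the numbers were not taken as pairs. The numbers do follow the caps: at day 2 and day 14, replicates 1 and 2 are in the low cap and 3 and 4 in the high cap. Sham differs only in replicate 2, which is in the high cap. Number and cap are thus largely not separable. With the replicate block 3129, 1666 and 512 genes were called at day 2, at day 14 and between them. The alternatives without Scrublet's doublets and with a batch named in the metadata were not run, because the threshold marked almost no cell and the metadata name no batch. Within-cap values and those for old mice without the young replicate 3 were chosen after seeing the data. In border-associated macrophages Olfml3, Gpr34 and Tmem119 did not pass the filter on low counts, and whether depth or low expression set this was not tested.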
